A study of Drosophila melanogaster with 9 samples.

Results

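Larvae lacking both copies of Atg6 were compared with wild-type larvae by RNA sequencing of whole animals, using 6 of the 9 libraries of the series, 3 homozygotes and 3 wild types. The comparison ran across all genes, and 10887 of 15809 loci had at least 1 FPKM in at least 3 of the 9 libraries and were tested. The mutant larvae carried the Atg6D chromosome in both copies (Atg6-/-), and the wild type carried none. Both were in the w118 background, were reared at 25C on standard food and were taken whole at the wandering stage, the end of the last larval instar, when larvae leave the food before forming the puparium. The other 3 libraries, from Atg6D/+ heterozygotes (Atg6-/+), entered the fit to estimate the spread. The labels do not give the lesion of the allele, the sex of the larvae or how many larvae made up a library. Nor do they state that repeats came from separate cultures, and the p-values cover only the variation among these samples, which may be technical. Other differences between the stocks, or in how far the larvae had developed, cannot be told apart from the mutation in this design.

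Atg6 is the fly Beclin 1. It is a subunit of the class III phosphatidylinositol 3-kinase complexes that mark membranes for autophagosome formation and for sorting in endosomes. Autophagy delivers cytoplasm to the lysosome for breakdown and is strongly used by the fat body, gut and salivary glands of the fly at the end of larval life. Larval blood cells, the hemocytes, comprise phagocytic plasmatocytes, crystal cells that carry prophenoloxidase, and lamellocytes, flat cells that are rare in healthy larvae and encapsulate large foreign bodies.

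Levels are given in FPKM, which counts fragments relative to transcript length and library size, and changes are log2 ratios of FPKM + 1, homozygote over wild type, a scale on which changes of weak genes come out too small. A locus was called where its limma p-value, adjusted over all 10887 loci by Benjamini and Hochberg, was under 0.05. Rose and fell are used of called loci. FPKM does not keep the read depth, which is therefore unknown. FPKM sums were 1072508, 779112 and 990224 in homozygotes and 754677, 1038462 and 836451 in wild types. In homozygotes 10.8 to 16.7% of this sum came from the 10 most abundant loci, against 19.0 to 24.2% in wild types. Correlations between libraries were 0.922 to 0.972 among homozygotes and 0.932 to 0.971 among wild types, against 0.849 to 0.948 between the genotypes.

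Atg6 RNA was all but lost in homozygotes. Atg6 (3R:24049180-24050782, minus strand, dm6) was listed at 0.0270, 0 and 0.0563 FPKM in homozygotes, against 16.1, 14.3 and 17.0 FPKM in wild types. The libraries therefore carried the genotype of their labels at this gene, and the change was −4.03 (SE 0.10, limma adjusted p = 1.04e-06). Adjacent genes rose in the same libraries. CG5991 (Pisd, phosphatidylserine decarboxylase of mitochondria) was at 40.5, 34.6 and 35.1 FPKM in homozygotes and at 11.5, 12.6 and 11.95 FPKM in wild types (1.53, SE 0.08, limma adjusted p = 6.29e-05). CG5986 was at 83.5, 86.7 and 81.0 FPKM in homozygotes and at 34.9, 36.4 and 37.8 FPKM in wild types (1.18, SE 0.07, limma adjusted p = 7.54e-05). The genotypes were separated widely at both loci. Of the other loci within 20 kb, Miro rose by 0.45 and Ime4 (Mettl3) fell by 0.34, each just past the threshold (limma adjusted p = 0.0449 and 0.0495) and lost under most alternative settings.

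Across the transcriptome 2396 of the 10887 loci (22.0%) were called, 1343 higher (12.3%) and 1053 lower (9.67%) in homozygotes. The median over all tested loci was 0.01. Calls toward higher levels were mostly modest, with a median of 0.69, 381 of them under 0.5 and 565 between 0.5 and 1, while calls toward lower levels had a median of −1.26. By at least 1 on the log2 scale, 397 loci rose (3.65%) and 696 fell (6.39%). Before adjustment, 2122 loci were higher and 2356 lower at a p under 0.05. The libraries of both genotypes did not overlap at 4356 loci (40.0%), 2120 higher (19.5%) and 2236 lower (20.5%) in homozygotes.

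How far the calls held depended on the libraries used. Of the 1343 called higher, 562 were called without each of the 9 libraries in turn and 427 under all 17 alternative settings. Of the 1053 called lower, 122 were called without each library and 87 under all settings. A locus left out by a stricter filter counts here as not kept. Without wild type 3 the calls were 583 higher and 154 lower, without homozygote 3 they were 735 and 191, and with homozygotes and wild types fitted alone 550 and 143. Without wild type 2 they were 1416 higher and 1700 lower.

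The direction of the calls moved with expression level. Among 1055 loci at a mean of 100 FPKM or more, 260 rose (24.6%) and 50 fell (4.74%), with a median of 0.37. Among 2634 loci between 1 and 5 FPKM, 104 rose (3.95%) and 441 fell (16.7%), with a median of −0.35. Noncoding RNAs, 259 tested, gave 22 rises and 41 falls, with a median of −0.31. Called shares were alike on the long arms, 11.4 to 13.6% higher and 8.61 to 10.7% lower on X, 2L, 2R, 3L and 3R, and on chromosome 4 there were 4 rises and 2 falls among 86 loci.

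**Figure D1:**
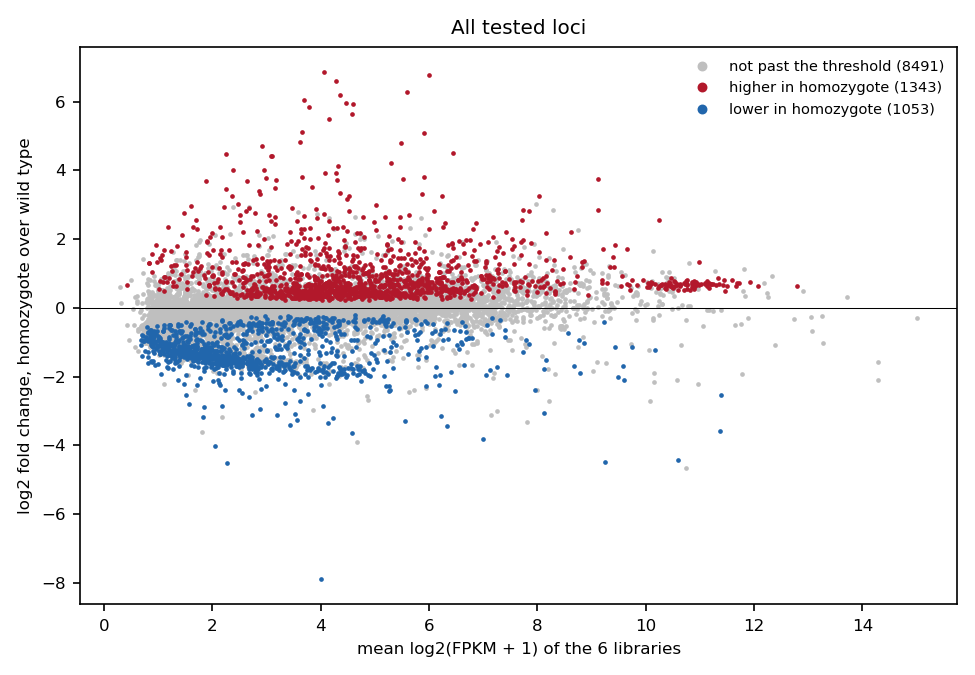
Each point is 1 of the 10887 tested loci, with the mean log2(FPKM + 1) of the 6 libraries on the x axis and the log2 fold change, homozygote over wild type, on the y axis. Red points rose (1343) and blue points fell (1053). Falls crowd at low levels and rises at high ones, and CG34026 is the lowest point at −7.89.

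The largest rises were a yellow family gene, secreted immune peptides and a set of uncharacterised genes. Of the yellow genes, relatives of royal jelly proteins that are best known for cuticle colour, yellow-d2 was at 91.6, 255.2 and 246 FPKM in homozygotes, against 0.394, 0.709 and 0.592 FPKM in wild types (6.85, SE 0.51, limma adjusted p = 0.000208). The lowest homozygote was far above the highest wild type. In the heterozygote, yellow-d2 was at 45.7, 134 and 139 FPKM. The uncharacterised CG14610 was at 266, 144 and 171 FPKM in homozygotes and at 3.42, 3.52 and 0.470 FPKM in wild types (5.93, SE 0.56). The long noncoding RNA CR44948 was at 177, 164 and 178 FPKM in homozygotes and at 1.88, 5.51 and 0.150 FPKM in wild types (5.97, SE 0.62). CG9928 was at 496, 80.7 and 117 FPKM in homozygotes and at 1.88, 3.58 and 1.94 FPKM in wild types (5.64, SE 0.65), so that homozygote 1 stood well above the other homozygotes. CG4716 varied among the wild types instead, at 424, 321 and 313 FPKM in homozygotes against 49.4, 2.5002 and 5.20 FPKM in wild types (5.09, SE 0.93, limma adjusted p = 0.0108).

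Among the steadiest of these genes was alphaTub85E, an alpha-tubulin of restricted tissues. It was at 512, 376 and 363 FPKM in homozygotes and at 15.9, 24.4 and 12.8 FPKM in wild types (4.51, SE 0.27, limma adjusted p = 7.54e-05). CG43351 was at 40.3, 39.3 and 32.6 FPKM in homozygotes and at 0.902, 0 and 0.687 FPKM in wild types (4.70, SE 0.26, limma adjusted p = 6.29e-05). Each of the 20 largest rises held under all alternative settings in which it was tested.

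**Figure D2:**
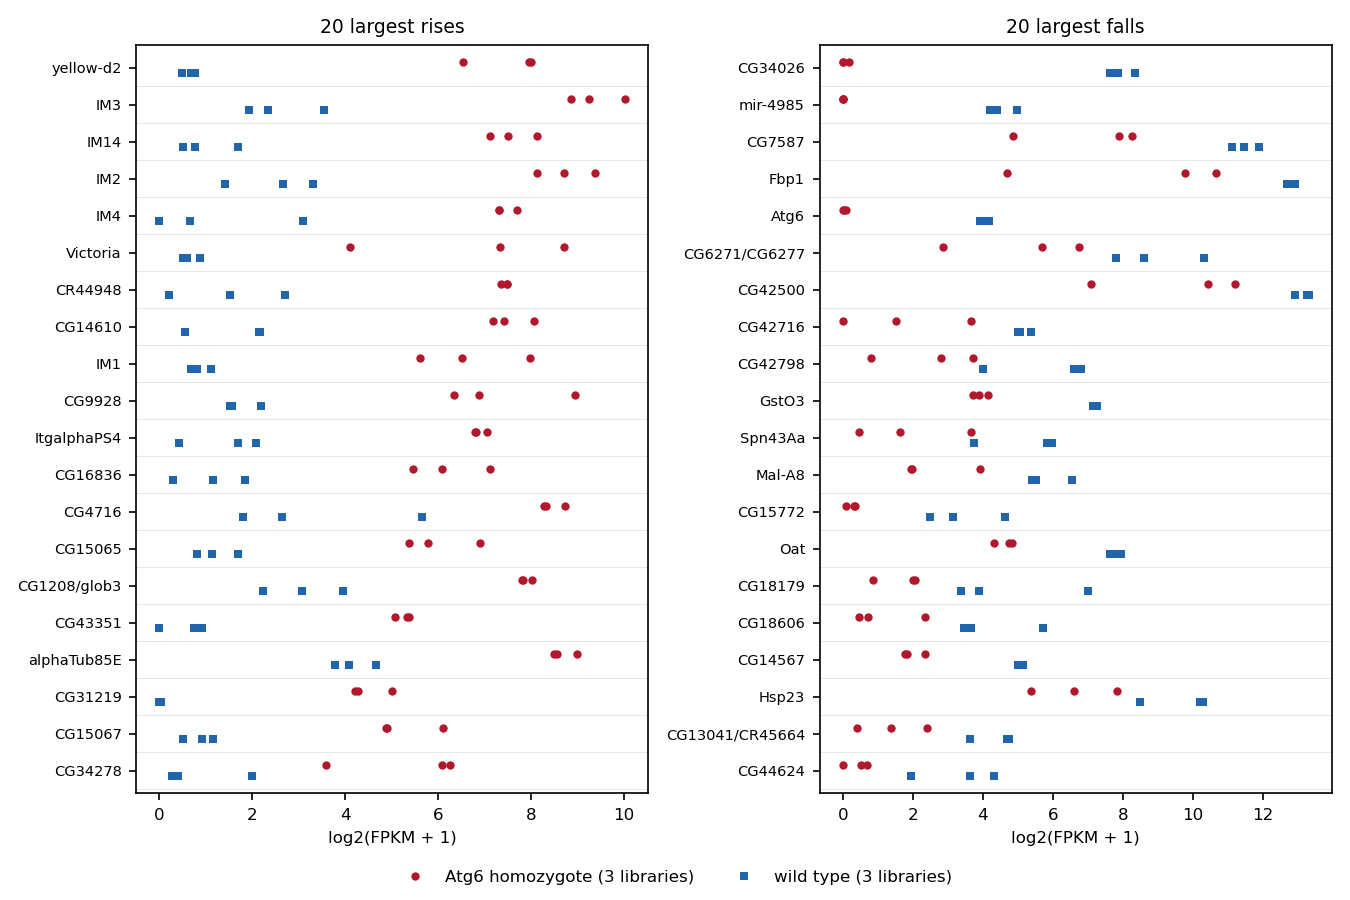
Level, as log2(FPKM + 1), of the 20 loci with the largest rises (left) and the 20 with the largest falls (right) among called loci whose larger genotype mean was 5 FPKM or more and whose genotypes did not overlap. Red circles are the 3 homozygote libraries and blue squares the 3 wild-type libraries. Rises are tight for alphaTub85E and CG43351, while among the falls homozygote values of CG7587, Fbp1 and CG42500 spread widely and those of CG34026, GstO3 and Oat do not.

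The largest fall was that of CG34026 on the X chromosome (X:9533818-9534625, dm6), a gene with no assigned function here. It was listed at 0.134, 0 and 0 FPKM in homozygotes, against 198, 326 and 229 FPKM in wild types (−7.89, SE 0.18, limma adjusted p = 1.04e-06), and lay between the genotypes in heterozygotes, at 64.0, 65.3 and 51.7 FPKM. Atg6 is on 3R, so that this locus is on another chromosome than the mutation. Oat, ornithine aminotransferase of amino acid metabolism, was at 27.8, 19.1 and 25.6 FPKM in homozygotes and at 220, 244 and 198 FPKM in wild types (−3.15, SE 0.17, limma adjusted p = 6.29e-05). CG14567 was at 4.06, 2.39 and 2.54 FPKM in homozygotes and at 30.8, 34.6 and 32.6 FPKM in wild types (−3.10, SE 0.16). At these genes the spread within each genotype was small beside the distance between them.

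Some other large falls were less even. The maltase gene Mal-A8 was at 2.87, 2.93 and 14.2 FPKM in homozygotes and at 41.7, 93.1 and 44.5 FPKM in wild types (−3.21, SE 0.58, limma adjusted p = 0.00996). Fbp1, the fat body receptor that takes up larval serum proteins, was at 25.0, 871 and 1608 FPKM in homozygotes and at 6548, 7292 and 7758 FPKM in wild types (−4.44, SE 1.33, limma adjusted p = 0.0496). CG42500 followed the same order, at 134, 1390 and 2376 FPKM in homozygotes and at 7717, 9770 and 10156 FPKM in wild types (−3.58, SE 0.93, limma adjusted p = 0.0357). Homozygote 1 was far below the other homozygotes at both genes. The call of Fbp1 was lost under 11 of 17 alternative settings and that of CG42500 under 8.

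On and off loci were few. With at least 5 FPKM in each library of one genotype and at most 0.5 in each of the other, 4 loci were present in homozygotes (0.0367%) and 4 in wild types (0.0367%), of which Atg6 and CG34026 were 2. Present in homozygotes were CG31219 (31.3, 17.5 and 18.3 FPKM in homozygotes, 0, 0 and 0.0310 FPKM in wild types), CG12133 (20.5, 9.09 and 9.58 FPKM in homozygotes, 0.0415, 0 and 0.0289 FPKM in wild types), TotB, and CG32640 on the X (5.20, 7.41 and 6.21 FPKM in homozygotes, 0, 0 and 0.199 FPKM in wild types). Present in wild types were also the merged noncoding locus CR44640/CR44641, at 0, 0.343 and 0.0588 FPKM in homozygotes and 6.95, 8.92 and 5.14 FPKM in wild types, and mir-4985. The microRNA locus mir-4985 was listed at 0 in all 3 homozygotes, against 30.3, 17.4 and 20.2 FPKM in wild types, but also at 0 in 1 of the 3 heterozygotes beside 19.7 and 18.8 FPKM. An exact 0 can be a failed estimate in such files, so that absence in homozygotes is not shown for this locus.

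Gene lists were then set beside the shares over all loci. Secreted immune peptides of the bomanin and daisho families, short peptides released into the blood after Toll signalling, rose together. Of 12 tested loci 11 rose and 0 fell, with a median of 4.97. Summed over the list, the level was 2228, 4619 and 1902 FPKM in homozygotes and 161, 36.9 and 218 FPKM in wild types. CG16836 (BomT2) was at 42.9, 137 and 67.1 FPKM in homozygotes and at 1.23, 0.223 and 2.60 FPKM in wild types (5.12, SE 0.50, limma adjusted p = 0.000771). IM23 (BomBc1) was at 25.8, 49.7 and 17.9 FPKM in homozygotes and at 1.65, 0.322 and 1.78 FPKM in wild types (3.79, SE 0.41). CG15068 (BomS6) was the exception, at 271, 2089 and 637 FPKM in homozygotes and at 122, 27.2 and 199 FPKM in wild types (3.01, limma adjusted p = 0.0504). Its libraries did not overlap, but homozygote 2 was far above the rest. Of the 11 rises, 10 held under all 17 settings.

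The classical antimicrobial peptides showed no such pattern. Of 13 tested loci 0 were called in limma (median −0.36) and 2, both lower, had a p under 0.05 before adjustment. Summed levels were 410, 1160 and 162 FPKM in homozygotes against 788, 122 and 2356 FPKM in wild types. The lowest and the highest library were both wild types, and the median was 0.46 without wild type 3 and −1.81 without wild type 2. Without wild type 2, 2 of the 13 fell. Dpt, diptericin, a target of Imd signalling, was at 63.5, 673 and 40.1 FPKM in homozygotes and at 216, 6.79 and 565 FPKM in wild types (0.30, SE 1.66). In the drosomycin family 0 of 3 tested loci were called in limma, and 0 had a p under 0.05 before adjustment. Its gene Drs was at 2.86 (limma adjusted p = 0.124). Summed over the family, levels were 450, 1530 and 888 FPKM in homozygotes against 587, 17.1 and 203 FPKM in wild types. Wild type 1 lay inside the homozygote range.

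Upstream of these peptides, serine proteases and receptors rose at some steps. The locus CG18754/SPE, which holds the protease that cleaves the Toll ligand but is merged with a neighbour, was at 85.4, 40.2 and 49.9 FPKM in homozygotes and at 9.43, 19.7 and 10.6 FPKM in wild types (2.06, SE 0.33, limma adjusted p = 0.00662). The ligand spz was at 51.0, 36.3 and 39.6 FPKM in homozygotes and at 10.2, 19.9 and 13.9 FPKM in wild types (limma adjusted p = 0.00521). In the list of the Toll protease cascade 5 of 21 rose and 2 fell (1 and 1 without homozygote 3, wild type 1 or wild type 3). The list of Toll components inside the cell also counts the secreted ligand spz. Of its 14 tested loci 3 rose, spz among them, and 0 fell. Serpins, inhibitors of such proteases, went both ways among 16 loci. Spn88Eb was at 80.0, 79.9 and 59.6 FPKM in homozygotes and at 20.3, 36.8 and 23.4 FPKM in wild types (1.44, SE 0.23, limma adjusted p = 0.00666), whereas Spn43Aa was at 0.381, 11.7 and 2.09 FPKM in homozygotes and at 61.4, 12.5 and 56.1 FPKM in wild types (−3.27, SE 0.88). The call of Spn43Aa was lost under 9 settings, and wild type 2 was close to homozygote 2. Of 20 other genes of peptidoglycan recognition and Imd signalling, 7 rose and 0 fell (median 0.20). PGRP-SD, a secreted peptidoglycan recognition protein counted here with the Toll protease cascade, fell, at 16.4, 10.2 and 13.7 FPKM in homozygotes and 47.3, 34.7 and 65.7 FPKM in wild types (−1.78, SE 0.26, limma adjusted p = 0.00475). Its fall held in all settings.

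Genes that mark lamellocytes were high in every homozygote. Of 9 markers tested 7 rose and 0 fell, with a median of 1.98, and the same number rose without each library and after both rescalings. Summed levels were 1800, 1777 and 1619 FPKM in homozygotes against 590, 548 and 582 FPKM in wild types. The surface protein gene atilla was at 217, 193 and 199 FPKM in homozygotes and at 41.5, 72.2 and 42.9 FPKM in wild types (1.98, SE 0.20, limma adjusted p = 0.00083). The tubulin betaTub60D was at 506, 534 and 481 FPKM in homozygotes and at 117, 56.3 and 96.5 FPKM in wild types (2.54, SE 0.25, limma adjusted p = 0.000767). Both separated the genotypes in every library, and no marker of the list was at 0 throughout. Of the 7 rises, 3 are integrin subunits that are also in the adhesion list, ItgalphaPS4, ItgalphaPS5 and mys. Not called were msn (0.42) and the filamin gene cher (0.16). How much other tissues contributed to the level of any marker of the list, called or not, was not tested. In whole larvae a higher level in the same cells cannot be told apart from more cells of a type.

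Other blood cell genes moved less evenly. Of 13 plasmatocyte markers 5 rose and 1 fell (median 0.28). The summed level was 1088, 983 and 850 FPKM in homozygotes against 459, 605 and 493 FPKM in wild types. The scavenger receptor gene Sr-CI was at 93.5, 64.1 and 57.5 FPKM in homozygotes and at 10.7, 18.8 and 12.6 FPKM in wild types (2.28, SE 0.25, limma adjusted p = 0.00125). In contrast eater, a receptor for bacteria, was at 3.57, 9.92 and 5.13 FPKM in homozygotes and at 11.2, 11.9 and 12.6 FPKM in wild types (−0.94, limma adjusted p = 0.0516). Within the Nimrod family of phagocytosis receptors 4 of 11 rose and 2 fell (2 and 1 without wild type 1 or wild type 3). NimB3 was at 187, 113 and 134 FPKM in homozygotes and at 50.6, 69.8 and 58.4 FPKM in wild types (1.24, SE 0.21), while NimC3 was at 0.996, 1.90 and 0.990 FPKM in homozygotes and at 9.99, 5.72 and 7.22 FPKM in wild types (−1.91, SE 0.30, limma adjusted p = 0.00587). Of 5 crystal cell markers 0 were called in limma and 0 had a p under 0.05 before adjustment, with PPO2 at 233, 202 and 153 FPKM in homozygotes and at 83.9, 290 and 185 FPKM in wild types.

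Cell adhesion genes formed the next group. Of 19 integrin and adhesion complex loci 13 rose and 0 fell, with a median of 0.64, and 10 of the 13 held under all settings. They span the alpha subunits ItgalphaPS4 (ItgaPS4), ItgalphaPS5 (ItgaPS5) and scb, the beta subunits mys and Itgbetanu (Itgbn), and cytoplasmic linkers. ItgalphaPS4 was at 112, 132 and 110 FPKM in homozygotes and at 2.26, 3.24 and 0.341 FPKM in wild types (5.48, SE 0.39). Itgbetanu was at 32.0, 29.9 and 26.4 FPKM in homozygotes and at 8.62, 9.09 and 6.69 FPKM in wild types (1.74, SE 0.13, limma adjusted p = 0.000208). The talin gene rhea, whose product ties integrins to actin, was at 76.7, 79.3 and 70.9 FPKM in homozygotes and at 35.6, 42.7 and 37.5 FPKM in wild types (0.96, SE 0.10, limma adjusted p = 0.00102). At each of these genes the lowest homozygote was above the highest wild type. The alpha subunit gene if was at 23.5, 11.8 and 20.3 FPKM in homozygotes and at 12.002, 20.1 and 13.1 FPKM in wild types, and was not called.

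Genes of actin and membrane organisation rose in part. Rac2, a GTPase that blood cells need to encapsulate parasites, was at 101, 80.0 and 75.0 FPKM in homozygotes and at 32.1, 34.04 and 33.2 FPKM in wild types (1.33, SE 0.13, limma adjusted p = 0.000796), while its close relative Rac1 was not called (0.03). Arpc1, an Arp2/3 subunit, was at 291, 204 and 245 FPKM in homozygotes and at 113, 124 and 110 FPKM in wild types (1.07, SE 0.15). At Rac2 and Arpc1 every homozygote was above every wild type. Of 9 unconventional myosins 3 rose and 0 fell, among them Myo31DF, a class I myosin, at 117.7, 89.6 and 99.3 FPKM in homozygotes and 30.4, 33.3 and 26.0 FPKM in wild types (1.74, SE 0.16, limma adjusted p = 0.000634). Tetraspanins, membrane organisers, gave 11 rises and 2 falls among 31 loci, and 4 to 6 rises without wild type 3, wild type 1 or homozygote 3. The merged locus Tsp42Eb/Tsp42Ec was at 249, 173 and 222 FPKM in homozygotes and at 54.7, 68.2 and 41.8 FPKM in wild types (1.96, SE 0.20). The nearby Tsp42Ep was at 3.48, 30.1 and 31.4 FPKM in homozygotes and 77.6, 90.5 and 93.03 FPKM in wild types (−2.41, SE 0.69, limma adjusted p = 0.0440). The call of Tsp42Ep was kept under 7 of 17 alternative settings, and 0 tetraspanins fell without wild type 1, wild type 3 or heterozygote 2.

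Among 18 basement membrane loci 8 rose and 1 fell (median 0.31), and 3 or 4 rose without wild type 1, wild type 3 or homozygote 3. The fall, CR45660/Pxn, is the same locus as the fall among the plasmatocyte markers. Ppn (papilin) was at 104, 55.8 and 80.9 FPKM in homozygotes and at 21.8, 29.997 and 20.0 FPKM in wild types (1.68, SE 0.23). The matrix protease Mmp1 was at 62.9, 89.2 and 56.2 FPKM in homozygotes and at 37.6, 25.2 and 30.2 FPKM in wild types (1.13, SE 0.19, limma adjusted p = 0.00841), and its inhibitor Timp was at 39.9, 38.9 and 42.3 FPKM in homozygotes and at 14.8, 23.0 and 15.5 FPKM in wild types (1.17, SE 0.18). The collagen IV gene Cg25C (Col4a1) overlapped, at 122, 67.6 and 75.5 FPKM in homozygotes and 66.7, 101 and 72.1 FPKM in wild types (0.12), and its partner vkg was not called (0.28).

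**Figure D3:**
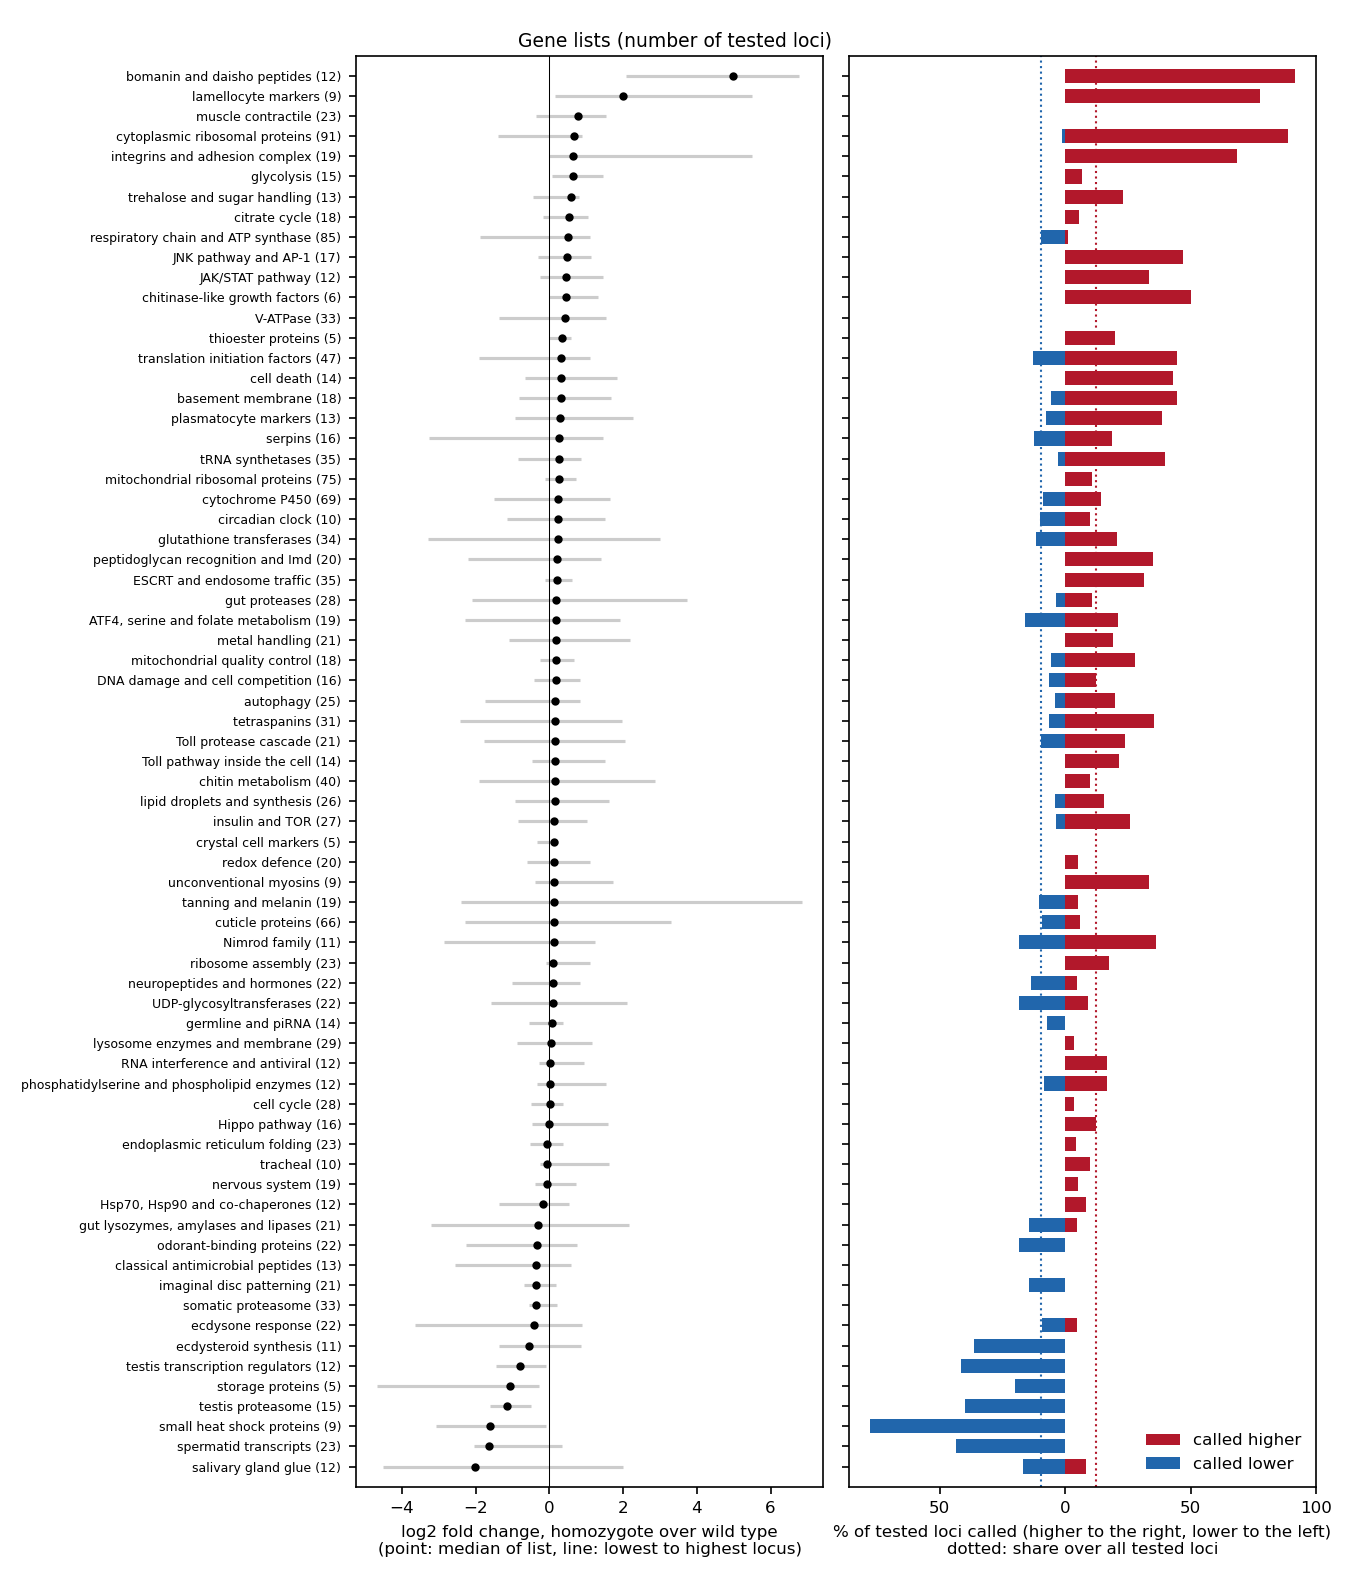
Left, the median (point) and range (line) of the log2 fold change, homozygote over wild type, of the gene lists with at least 5 tested loci, with the number of tested loci in parentheses. Lists not reported here are left out. Right, the share of each list called higher (red, to the right) and lower (blue, to the left), with dotted lines at 12.3% and 9.67%, the shares over all tested loci. Bomanin and daisho peptides, lamellocyte markers, ribosomal proteins and adhesion genes reach the highest shares called higher, and small heat shock proteins the highest share called lower.

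Stress signalling genes rose in part. Of 17 genes of the JNK pathway and its AP-1 output 8 rose and 0 fell (median 0.48), among them the feedback phosphatase puc, at 24.0, 35.6 and 29.1 FPKM in homozygotes and 13.8, 16.0 and 14.5 FPKM in wild types (0.94, SE 0.14, limma adjusted p = 0.00503). Of 12 JAK/STAT genes 4 rose and 0 fell (median 0.45). The transcription factor gene zfh1 was at 23.6, 24.2 and 17.97 FPKM in homozygotes and at 8.98, 6.20 and 8.37 FPKM in wild types (1.37, SE 0.15, limma adjusted p = 0.00138). The cytokine gene upd3 was at 4.78, 5.81 and 3.37 FPKM in homozygotes and at 3.84, 0.334 and 0.266 FPKM in wild types (1.47, limma adjusted p = 0.0622), with wild type 1 inside the homozygote range. Without wild type 3 or homozygote 3, the JAK/STAT list had 1 rise. In the cell death list 6 of 14 rose and 0 fell (median 0.31), and 3 rose without wild type 3. The caspase gene Damm was at 211, 144 and 117 FPKM in homozygotes and at 58.1, 38.4 and 33.7 FPKM in wild types (1.83, SE 0.27, limma adjusted p = 0.00506), whereas the death inducer rpr was not called, at 5.62, 8.06 and 5.89 FPKM in homozygotes and 4.03, 3.46 and 4.31 FPKM in wild types (0.60, limma adjusted p = 0.0773).

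The Turandot genes, secreted stress peptides that lie partly in a cluster on 3R, did not move as a block. TotA (3R:20871036-20871700) was at 307, 391 and 629 FPKM in homozygotes and at 1334, 1389 and 1375 FPKM in wild types (−1.69, SE 0.28, limma adjusted p = 0.00704). TotC (3R:20872988-20873580), 1287 bases further on, was at 88.6, 35.6 and 90.4 FPKM in homozygotes and at 7.60, 6.57 and 5.35 FPKM in wild types (3.17, SE 0.36, limma adjusted p = 0.0015). TotB (3R:20873938-20874522), 357 bases beyond TotC, was at 5.43, 37.1 and 36.0 FPKM in homozygotes and at 0.427, 0.406 and 0.0832 FPKM in wild types (4.01, SE 0.63, limma adjusted p = 0.00587). Neighbours in 1 cluster thus moved in opposite directions, and neither genotype overlapped the other at any of them. Even after its fall TotA had the highest level of the 3 in homozygotes. Victoria (TotE), on 2L, was at 16.3, 160 and 419 FPKM in homozygotes and at 0.432, 0.822 and 0.505 FPKM in wild types (6.06, SE 1.00). These are near copies of 1 family, and how reads shared between them were assigned is not given in the sources available.

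A second cluster with opposite changes holds the Omega class glutathione transferases on 3L, enzymes that use glutathione to reduce or conjugate small molecules. GstO3 (3L:8518885-8520295) was at 13.8, 16.6 and 12.2 FPKM in homozygotes and at 140, 147 and 153 FPKM in wild types (−3.29, SE 0.11, limma adjusted p = 6.32e-06). GstO2 (3L:8521429-8523501), 1133 bases away, was at 198, 156.4 and 192 FPKM in homozygotes and at 66.7, 81.1 and 64.3 FPKM in wild types (1.35, SE 0.15, limma adjusted p = 0.00135). GstO1 (3L:8523742-8524866), 240 bases beyond, was at 12.1, 15.6 and 12.9 FPKM in homozygotes and at 27.0, 23.0 and 27.6 FPKM in wild types (−0.89, SE 0.20, limma adjusted p = 0.0222). GstO3 was the highest of the 3 in wild types and GstO2 in homozygotes. The changes of GstO3 and GstO2 held under all settings, and that of GstO1 was lost without homozygote 3, wild type 1 or wild type 3. For this family too the assignment of shared reads is not known.

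**Figure D4:**
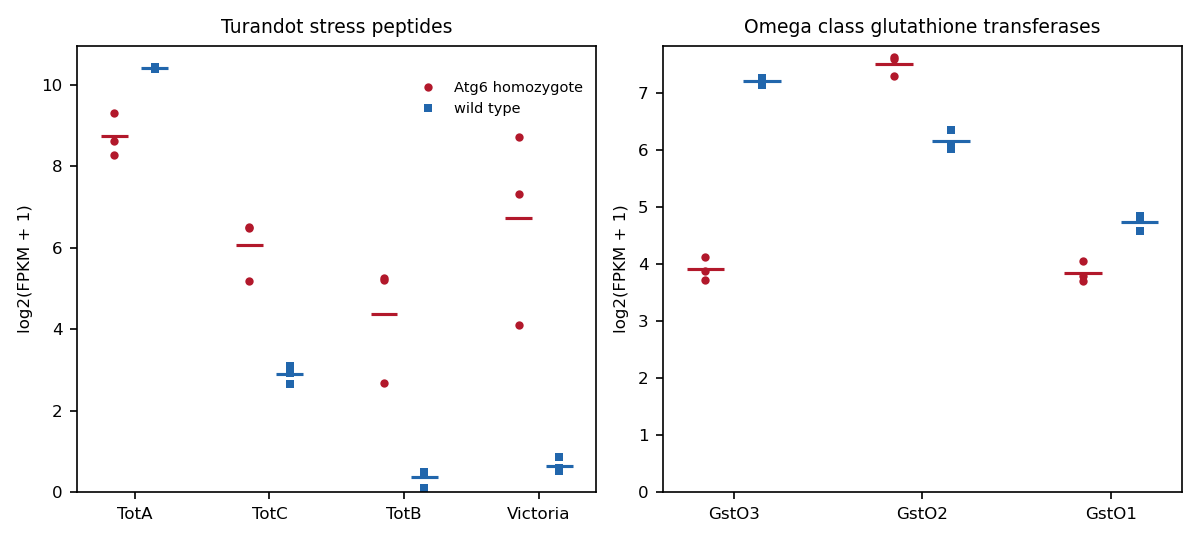
Level, as log2(FPKM + 1), of 4 Turandot genes (left) and 3 Omega class glutathione transferases (right). Red circles are homozygote libraries, blue squares wild-type libraries, and bars the means of log2(FPKM + 1). TotA, GstO3 and GstO1 are lower in homozygotes, and TotC, TotB, Victoria and GstO2 are higher.

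Other detoxification genes were likewise split. Of 34 glutathione transferases 7 rose and 4 fell. There were 4 rises without homozygote 3, wild type 1 or wild type 3, 11 without homozygote 2, and 2 falls without wild type 1 or wild type 3. GstD2 rose most, at 77.0, 79.5 and 122 FPKM in homozygotes against 13.4, 12.6 and 6.84 FPKM in wild types (2.99, SE 0.27, limma adjusted p = 0.00059). Of 69 cytochrome P450 loci 10 rose and 6 fell, shares near those over all loci, with 18 rises without homozygote 2, 17 without wild type 2 and 4 without wild type 3. The locus CG13175/Cyp6g1, which includes an insecticide resistance P450, was at 17.7, 20.4 and 16.8 FPKM in homozygotes and at 57.6, 43.9 and 59.1 FPKM in wild types (−1.49, SE 0.14, limma adjusted p = 0.000767). UDP-glycosyltransferases gave 2 rises and 4 falls among 22, with 2 falls without homozygote 3 or wild type 1 and 1 without wild type 3. In 20 redox defence genes 1 rose and 0 fell (0 to 3 rises when 1 library was left out). In 21 metal handling genes 4 rose and 0 fell, with 1 rise without homozygote 3 or wild type 3 and 7 without wild type 2.

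Cytoplasmic ribosomal protein genes were the group of protein synthesis genes with the highest share of rises. Of 91 cytoplasmic ribosomal protein loci 81 rose and 1 fell (median 0.67), and together they held 19.1, 24.3 and 18.03% of the FPKM in homozygotes against 15.1, 12.5 and 13.8% in wild types. RpS3 was at 2102, 1824 and 1779 FPKM in homozygotes and at 994, 1141 and 1013 FPKM in wild types (0.86, SE 0.12, limma adjusted p = 0.00418). After quantile normalization the list had 0 rises and a median of 0.23, and with the homozygotes and wild types fitted alone it had 19. Without wild type 1 there were 52 rises and without wild type 3 there were 28. Initiation factors gave 21 rises (44.7%) and 6 falls (12.8%) among 47 loci, from −1.90 to 1.09, and 3 rises and 4 falls after quantile normalization. Without homozygote 3, wild type 1 or wild type 3 there were 13 or 14 rises and 1 fall. Among them eIF-3p66 (eIF3d1) was at 215, 240 and 213 FPKM in homozygotes and at 100, 104 and 109 FPKM in wild types (1.09, SE 0.09, limma adjusted p = 0.000401), a rise that held in every setting. Those that fell include eIF4E-3 (eIF4E3) and CG10881 (eIF3g2), the first known for its role in the testis. Of 35 tRNA synthetase loci 14 rose and 1 fell (median 0.27), with 9 to 12 rises when 1 library was left out. The list includes Aats-tyr (TyrRS), at 83.0, 83.0 and 80.0 FPKM in homozygotes and 43.8, 47.1 and 43.7 FPKM in wild types (0.86, SE 0.08). Of 75 mitochondrial ribosomal proteins 8 rose (10.7%, under the share over all loci) and 0 fell, with 24 rises without homozygote 2 and 1 without wild type 3, and 4 of 23 ribosome assembly genes rose, or 1 to 3 when 1 library was left out.

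Of 27 insulin and TOR genes 7 rose (25.9%) and 1 fell (3.70%), with a median of 0.13. Of 16 Hippo genes 2 rose (12.5%, near the 12.3% over all loci) and 0 fell, with a median of −0.02. There were 4 falls without homozygote 2 and 1 rise without homozygote 3, wild type 1 or wild type 3. The Hippo gene kibra, a scaffold at the cell cortex that turns the pathway on, was one of the steadiest changes of all, at 24.3, 24.6 and 20.7 FPKM in homozygotes and 7.33, 6.67 and 7.23 FPKM in wild types (1.58, SE 0.08, limma adjusted p = 6.29e-05). Sesn (sestrin, which restrains TOR) was at 16.1, 24.6 and 24.5 FPKM in homozygotes and at 38.9, 37.3 and 41.5 FPKM in wild types (−0.85, SE 0.15, limma adjusted p = 0.0106). S6k, a kinase downstream of TOR, was at 35.1, 42.6 and 34.3 FPKM in homozygotes and at 20.0, 25.7 and 24.4 FPKM in wild types (0.66, SE 0.13). Without wild type 3 or homozygote 3 the insulin and TOR list had 1 rise and 1 fall.

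Lists of autophagy, endosome and lysosome genes had small median changes (0.17, 0.20 and 0.04). Of 25 autophagy loci other than Atg6, 5 rose and 1 fell, with a median of 0.17, and 1 to 4 rose when 1 library was left out. The fall was that of Atg8b (−1.73, limma adjusted p = 0.0464), a call kept under 5 of 17 alternative settings. The cargo receptor gene ref(2)P, the fly p62, was at 211, 271 and 231 FPKM in homozygotes and at 147, 124 and 129 FPKM in wild types (0.82, SE 0.12, limma adjusted p = 0.00398). Its call was lost after quantile normalization (limma adjusted p = 0.113) and kept under every other setting. Atg8a, the ubiquitin-like protein that coats autophagosomes, was at 422, 860 and 652 FPKM in homozygotes and at 475, 619 and 571 FPKM in wild types (0.17), and overlapped. Of 35 ESCRT and endosome traffic genes 11 rose and 0 fell, each by under 1, for example Rab35 at 46.6, 50.6 and 47.5 FPKM in homozygotes and 30.9, 33.8 and 34.9 FPKM in wild types (0.53, SE 0.07, limma adjusted p = 0.00411). After quantile normalization or without wild type 3, 3 of the list rose, and 5 without wild type 1 or homozygote 3. Lysosomal genes gave 1 rise among 29 (0 to 3 when 1 library was left out) and V-ATPase subunits 0 calls among 33 in limma. Before adjustment 12 of them were higher and 5 lower at a p under 0.05, and without homozygote 2 there were 14 rises. Vha16-1 was at 1321, 782 and 1070 FPKM in homozygotes and 536, 875 and 696 FPKM in wild types. Of 18 genes of mitochondrial quality control 5 rose and 1 fell, with 2 rises without wild type 1, without wild type 3 or after quantile normalization. Both fusion GTPases rose, Marf at 58.2, 69.6 and 64.7 FPKM in homozygotes and 38.1, 43.4 and 37.7 FPKM in wild types (0.68, SE 0.10) and Opa1 (0.66, SE 0.11).

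Markers of the late larval programme were lower. Salivary gland glue proteins fix the pupal case to its substrate and are made in the last larval instar. The list also counts ng3 and ng4. Its summed level was 6401, 25750 and 29354 FPKM in homozygotes against 56264, 63255 and 81875 FPKM in wild types. That was 0.597, 3.30 and 2.96% of the FPKM against 7.46, 6.09 and 9.79%. In homozygote 1, ng3 gave 2112 FPKM of this sum. No homozygote reached the lowest wild type, and homozygote 1 was well below the other homozygotes. The list nonetheless gave only 2 falls and 1 rise among 12 loci (median −2.01), where homozygote values were far apart. Without homozygote 1 there were 7 falls and 0 rises. CG7587 (Sgs5bis) was at 27.8, 237 and 303 FPKM in homozygotes and at 2228, 2838 and 3782 FPKM in wild types (−4.50, SE 0.80, limma adjusted p = 0.00974), and held in all settings. Sgs8 was at 288, 1935 and 2496 FPKM in homozygotes and at 5650, 6038 and 7810 FPKM in wild types (−2.52, SE 0.72, limma adjusted p = 0.0441), a call lost under 9 settings. The gene that rose, ng3, is known for activity in the gland before the glue genes, and was at 2112, 520 and 1145 FPKM in homozygotes and 250, 482 and 291 FPKM in wild types (1.72, SE 0.51, limma adjusted p = 0.0471), a call lost under 11.

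Genes of steroid hormone synthesis were lower in part. Of 11 genes of ecdysteroid synthesis, by which the ring gland makes the moulting hormone, 4 fell (36.4%) and 0 rose (median −0.56), with 2 falls without homozygote 3 or wild type 3 and 6 without homozygote 2. The P450 gene dib was at 0.218, 0.629 and 0.434 FPKM in homozygotes and at 2.11, 1.87 and 2.54 FPKM in wild types (−1.16, SE 0.17, limma adjusted p = 0.00469). The hydroxylase gene phm (phtm) was at 7.72, 13.9 and 11.4 FPKM in homozygotes and at 23.8, 27.4 and 32.6 FPKM in wild types (−1.29, SE 0.22, limma adjusted p = 0.00887). Among 22 genes of the ecdysone response 2 fell (9.09%, near the 9.67% over all loci) and 1 rose (median −0.43), with 10 falls without homozygote 2 and 6 without wild type 2. The ecdysone-inducible gene ImpE3 was at 1.04, 3.81 and 2.58 FPKM in homozygotes and at 24.3, 10.03 and 16.3 FPKM in wild types (−2.37, SE 0.36, limma adjusted p = 0.00554). Of the storage proteins only Fbp1 was called, 1 of 5 tested. Lsp2 was at 7550.4, 6772 and 9112 FPKM in homozygotes and at 7462, 12237 and 8989 FPKM in wild types (−0.27), and was not called. Lsp1beta was listed at 0 in homozygote 1 and also in heterozygote 3, where the other heterozygotes had 14821 and 11876 FPKM. These zeros may be failed estimates.

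Small heat shock proteins, chaperones that hold unfolded proteins and in flies are also induced by ecdysone late in larval life, fell in 7 of 9 tested genes and rose in 0 (median −1.62). Their summed level was 854, 1373 and 1493 FPKM in homozygotes against 3620, 2993 and 3805 FPKM in wild types. Hsp23 was at 40.3, 225 and 96.0 FPKM in homozygotes and at 1176, 361 and 1256 FPKM in wild types (−3.07, SE 0.70, limma adjusted p = 0.0241). Hsp26 was at 33.6, 52.0 and 30.04 FPKM in homozygotes and at 230, 60.3 and 140 FPKM in wild types (−1.71, SE 0.46, limma adjusted p = 0.04). Wild type 2 was the lowest wild type at both genes, close to the highest homozygote. No call of the list was left without wild type 1 (0 of 9, median −1.32) or with homozygotes and wild types fitted alone (0 of 9), and 1 was left without wild type 3 or homozygote 3. Without heterozygotes 1, 2 or 3 there were 3 or 4. The large chaperones gave 1 rise and 0 falls among 12 genes of the Hsp70 and Hsp90 list and 1 rise among 23 of the endoplasmic reticulum.

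Transcripts of the male germline were lower. Of 23 spermatid transcripts 10 fell and 0 rose (median −1.63), of 15 testis forms of proteasome subunits 6 fell (median −1.16), and of 12 testis transcription regulators 5 fell (median −0.78). The summed spermatid level was 305, 181 and 172 FPKM in homozygotes against 1038, 348 and 490 FPKM in wild types. Mst98Cb was at 7.34, 3.92 and 3.36 FPKM in homozygotes and at 32.1, 10.7 and 13.2 FPKM in wild types (−1.65, SE 0.42, limma adjusted p = 0.035). Wild type 1 was well above the other wild types, and without it 0 loci of the 3 lists were called (medians −1.18, −0.86 and −0.64). None was called either without wild type 3 or without homozygote 3. Without wild type 2 there were 19, 15 and 7 calls. The male-specific RNAs of dosage compensation were not called, with roX1 at 135, 150 and 143 FPKM in homozygotes and 123, 95.4 and 153 FPKM in wild types (0.23, limma adjusted p = 0.424) and roX2 at 19.6, 31.9 and 30.9 FPKM in homozygotes and 35.6, 25.2 and 45.3 FPKM in wild types (−0.35, limma adjusted p = 0.469). The part of sex ratio or testis size in these values was not tested. The somatic proteasome had 0 calls among 33 subunits in limma (median −0.37). Before adjustment 1 was higher and 2 lower at a p under 0.05, and there were 26 falls without homozygote 2.

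Muscle and energy genes varied widely among libraries of the same genotype. Contractile protein genes summed to 37780, 14265 and 31614 FPKM in homozygotes and to 10493, 25919 and 12685 FPKM in wild types, and 0 of 23 were called in limma, with a median of 0.79, and before adjustment 1 was higher and 0 lower at a p under 0.05. The high libraries were homozygotes 1 and 3 and wild type 2. Without homozygote 2 or without wild type 2, 3 rose. Glycolysis enzymes followed the same libraries, with 1 rise among 15 and a median of 0.64, for example PyK, pyruvate kinase, at 813, 229 and 571 FPKM in homozygotes and 179, 476 and 200 FPKM in wild types (0.88, limma adjusted p = 0.252). Respiratory chain loci gave 1 rise and 8 falls among 85 with a median of 0.49. Without homozygote 2 there were 14 rises and 1 fall, and without homozygote 3, wild type 1 or wild type 3 there were 0 calls. The falls include that of Cyt-c-d, the cytochrome c used in sperm development, at 9.49, 5.38 and 5.34 FPKM in homozygotes and 41.7, 14.3 and 20.5 FPKM in wild types (−1.68, SE 0.45). Cuticle genes gave 4 rises and 6 falls among 66, or 10 of each without homozygote 2, and the summed level of 22387 FPKM in homozygote 2 was the lowest of the 6 libraries.

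**Figure D5:**
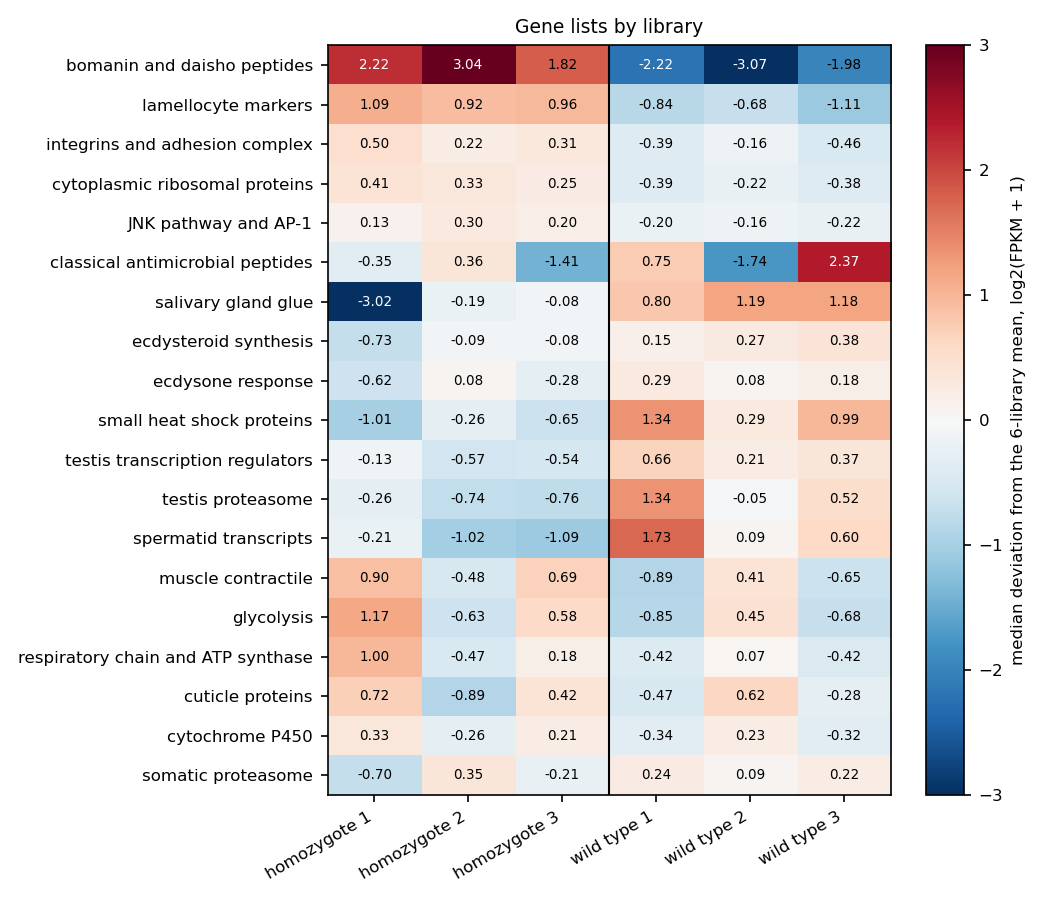
Median deviation of each list's loci from their 6-library mean, in log2(FPKM + 1), for the 3 homozygote libraries (left) and the 3 wild-type libraries (right), red above and blue below the mean. The 19 lists were picked after their values were seen. Bomanins, lamellocyte markers, adhesion genes and ribosomal proteins split by genotype, muscle and glycolysis split homozygotes 1 and 3 and wild type 2 from the rest, and glue has its lowest value, −3.02, in homozygote 1.

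Metabolic genes changed one by one. LpR2, a lipophorin receptor that takes up lipids, was at 31.0, 34.01 and 27.0 FPKM in homozygotes and at 12.1, 11.7 and 11.7 FPKM in wild types (1.30, SE 0.09, limma adjusted p = 0.000181). Of 26 lipid genes 4 rose and 1 fell, with 1 rise without wild type 3, 2 without homozygote 3 or wild type 1, 8 without homozygote 2, and 5 falls after quantile normalization. Hmgs, HMG-CoA synthase of isoprenoid synthesis, was at 72.4, 63.6 and 59.1 FPKM in homozygotes and at 27.4, 32.1 and 23.7 FPKM in wild types (1.20, SE 0.15). Nmdmc, a mitochondrial enzyme of folate metabolism, was at 55.6, 138 and 82.5 FPKM in homozygotes and at 34.3, 15.1 and 20.6 FPKM in wild types (1.91, SE 0.36, limma adjusted p = 0.0124), while CG3011 (Shmt, serine hydroxymethyltransferase) was at 83.8, 73.9 and 83.0 FPKM in homozygotes and at 149, 127 and 117.7 FPKM in wild types (−0.70, SE 0.11, limma adjusted p = 0.00624). In that list of ATF4, serine and folate genes 4 of 19 rose and 3 fell, with 0 rises without wild type 3, 1 without homozygote 3 and 2 without wild type 1.

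Gut and chitin lists had shares of rises under the 12.3% over all loci. The shares were 10.7% for gut proteases, 4.76% for lysozymes, amylases and lipases, and 10% for chitin genes. Shares of falls were 3.57%, 14.3% and 0%, beside 9.67% over all loci. Of 28 gut protease loci 3 rose and 1 fell (0 to 8 rises when 1 library was left out), the fall being Jon99Fi, at 422, 206 and 608 FPKM in homozygotes and 1983, 1493 and 1412 FPKM in wild types (−2.10, SE 0.36, limma adjusted p = 0.00838). Of 21 lysozyme, amylase and lipase loci 1 rose and 3 fell, the 3 being maltases, with 0 to 3 rises when 1 library was left out. Mal-A6 was at 18.9, 20.4 and 50.3 FPKM in homozygotes and at 89.3, 227 and 119 FPKM in wild types (−2.27, SE 0.44, limma adjusted p = 0.0139). Chitin genes gave 4 rises and 0 falls among 40, and the rises held in all settings, with 5 falls without homozygote 2. The merged mucin locus CG14495/Muc55B was at 733, 410 and 616 FPKM in homozygotes and at 78.8, 101 and 58.7 FPKM in wild types (2.86, SE 0.47), and Gasp, a chitin-binding protein of the trachea, was at 394, 446 and 554 FPKM in homozygotes and at 116, 218 and 128 FPKM in wild types (1.63, SE 0.25, limma adjusted p = 0.00527). Idgf1, a chitinase-like growth factor, was at 27.3, 55.2 and 43.3 FPKM in homozygotes and at 17.9, 12.4 and 16.5 FPKM in wild types (1.33, SE 0.26).

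Odorant-binding proteins, small carriers that larvae also make outside the nose, fell in 4 of 22 tested loci and rose in 0. Obp99a was at 59.8, 42.2 and 66.2 FPKM in homozygotes and at 201, 201 and 135 FPKM in wild types (−1.66, SE 0.21, limma adjusted p = 0.00249). Obp56e was at 4.45, 0.888 and 3.67 FPKM in homozygotes and at 12.4, 22.6 and 16.1 FPKM in wild types (−2.27, SE 0.39, limma adjusted p = 0.00833). Of 19 nervous system genes 1 rose, and of 22 neuropeptide genes 1 rose and 3 fell (1 or 2 falls when 1 library was left out), among them Dh44, a diuretic hormone, at 2.62, 1.52 and 1.82 FPKM in homozygotes and 5.49, 4.32 and 5.09 FPKM in wild types (−1.01, SE 0.16, limma adjusted p = 0.00583). Imaginal disc patterning genes gave 3 falls among 21 (14.3%, beside 9.67% over all loci), with a median of −0.37. There were 0 falls after quantile normalization and 9 without homozygote 2. The list is weakly expressed, with a summed level of 82.0 FPKM in homozygotes and 107 FPKM in wild types. Among all loci between 1 and 5 FPKM, 16.7% fell and the median was −0.35. Of 28 cell cycle genes 1 rose and 0 fell (median 0.01), with 5 falls without wild type 2, and of 14 germline and piRNA genes 1 fell.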

How the data were processed

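The authors deposited FPKM values per gene and library, and these were used as they stand. The genome build dm6 and the tools limma, Cufflinks 2.2.1 and HISAT2 2.1.0 are listed, per the submitters' processing notes. The annotation and the role of each tool are not given there. The deposited table had 50244 lines for 15809 loci. Each locus was kept once, since its repeated lines hold identical values. Of the loci, 818 carry several gene names, written with a slash here, whose values cannot be separated. Positions came from the Ensembl BDGP6 annotation by symbol, and current symbols stand in parentheses. FPKM keeps no depth, so no counting interval can be given.

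Loci with at least 1 FPKM in at least 3 libraries were fitted on log2(FPKM + 1) with limma 3.58.1 in R 4.3.3 (lmFit, contrasts.fit and eBayes with trend), 3 genotypes together and no replicate block. The contrast was homozygote minus wild type, with Benjamini-Hochberg adjustment over all tested loci at 0.05. The script was tested on simulated data. Alternatives were quantile normalization, median-of-ratios scaling, 2 genotypes alone, a replicate block, leaving out each library, a stricter filter at 5 FPKM or none, and a pseudocount of 0.1 or of 5. Scaling factors were 0.989 to 1.01, and scaling moved the median of all loci by under 0.1.

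The comparison, the 75 gene lists and the naming rule were chosen with earlier results of these data known. Named genes are Atg6, w and loci within 20 kb of Atg6, the 20 largest rises and falls without overlap, on and off loci, and up to 3 loci per direction of each list, or with none called the most abundant. The text prints a choice of these. These were named after their values were seen: atilla, betaTub60D, eater, msn, cher, IM23, CG15068, rhea, if, scb, ItgalphaPS5, Rac1, Cg25C, vkg, upd3, rpr, Hsp26, Atg8a, PyK, Lsp2, Lsp1beta, roX1 and roX2. Of these lists 2 are not reported here. The lysozyme list was corrected after the first run, since a pattern had caught a tRNA synthetase. Tables and figures were made with Python 3.11.15, pandas 2.3.3 and matplotlib 3.10.9.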

Additional observations from a re-analysis of the deposited data

How the results depend on the processing

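The loci called higher numbered 1343 and those called lower 1053. With homozygotes and wild types fitted alone they were 550 and 143. With a filter at 5 FPKM 659 were lower, and with a pseudocount of 5, 589. Leaving out each library in turn gave 583 to 1673 higher and 154 to 1700 lower, with the lowest counts without wild type 3. Without homozygote 3 there were 735 and 191, without wild type 1 there were 780 and 274, and without heterozygotes 2 or 3 there were 354 and 402 lower. The labels do not state that replicate numbers pair the samples. Deviations from the genotype means correlated at −0.00375, −0.499 and −0.158 between equally numbered libraries. With 3 libraries a genotype, these values cannot show whether equally numbered libraries were handled together. A fit with the replicate number as a block called 750 higher and 216 lower. The change of Atg6, −4.03, kept its call in all 17 alternatives, with values of −6.98 and −2.05 at pseudocounts of 0.1 and 5. The 8 on and off loci became 15 with limits of 5 and 1 FPKM and 4 with limits of 10 and 0.5. Changes of sign were looked for among the named loci only, and there they concerned loci that were not called. Dpt, at 0.30, was at −0.94 without homozygote 2 and −1.53 without wild type 2, the lowest value, and at 1.56, the highest, without wild type 3. PPO2, at 0.23, was at −0.061 after quantile normalization and ranged from −0.26 without wild type 1 to 0.63 without wild type 2. CG33108/LSm3 was at −0.010 after quantile normalization. SMC1 was at −0.045 after quantile normalization, −0.039 without homozygote 2, −0.027 without homozygote 3 and at most 0.17, without homozygote 1. The cause of these differences was not tested. FPKM limits what can be said of weak loci, since the counts behind them are unknown.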
